A study of Mus musculus with 48 samples.

Results

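Glucose enters a cell through facilitative transporters and is split to pyruvate by the glycolytic enzymes, and the genes described here are 10 members of that route. They were chosen by symbol: Slc2a1 (the transporter GLUT1), the hexokinases Hk1 and Hk2, the phosphofructokinase subunits Pfkl, Pfkm and Pfkp, the regulatory enzyme Pfkfb3, phosphoglycerate kinase Pgk1, lactate dehydrogenase A (Ldha) and pyruvate dehydrogenase kinase Pdk1. All 10 were found, once each, among the 55335 gene rows of each of the 4 expression tables. All 10 genes are protein-coding in GENCODE M21 on GRCm38. Slc2a1 lies at chr4:119108711-119137983, Hk1 at chr10:62268855-62379908, Hk2 at chr6:82725025-82774454, Pfkl at chr10:77986947-78010083 and Pfkm at chr15:98092589-98132451. Pfkp lies at chr13:6579768-6648777, Pfkfb3 at chr2:11471433-11554077, Pgk1 at chrX:106187100-106203699, Ldha at chr7:46841475-46855627 and Pdk1 at chr2:71873224-71903858. The study asked how damage to mitochondria, in stress or with age, acts on osteocytes, the cells embedded in bone matrix.

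Hexokinase traps glucose as glucose 6-phosphate, and phosphofructokinase commits it to breakdown. Phosphofructokinase is built from liver, muscle and platelet subunits (Pfkl, Pfkm and Pfkp), and Pfkfb3 makes the fructose 2,6-bisphosphate that activates it. Pgk1 yields ATP, Ldha turns pyruvate into lactate, and Pdk1 holds pyruvate back from mitochondria by phosphorylating pyruvate dehydrogenase. When mitochondria make less ATP, cells commonly draw more on this route, and several of its genes are known targets of the hypoxia-inducible factor HIF-1.

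Libraries of poly(A)-selected RNA fell into 9 groups of 3 libraries each, all labelled wild type and C57BL/6J. MLO-Y4, a mouse osteocyte-like cell line, was treated with oligomycin A (an inhibitor of the mitochondrial ATP synthase) at a working concentration of 50 µM for 1 h, or with the DMSO vehicle for 1 h. Supernatants of both cultures were then put on untreated MLO-Y4 cells for 2 h, which gave the oligomycin A supernatant and vehicle supernatant groups. In a separate table, MLO-Y4 cells received 2 µM ADP for 2 h or no ADP. Bone came from 18-month-old mice (old cortical bone of femur and tibia) and from fragments of 1-month-old long and parietal bones cultured for 48 h after a change to donor medium (bone medium transfer and bone control). Whether young or old bone had supplied the medium of either young group is not stated. The protocol of old cortical bone says that marrow and other nonosseous tissue were harvested with it. The treatment label of the vehicle samples names oligomycin A together with DMSO, whereas their titles and protocol make them vehicle. Whether the 3 libraries of a group are separate cultures or animals is not stated, and the spread that p-values measure may then be technical.

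A few libraries stood apart. Vehicle replicate 2 held 27.1% of its summed FPKM (length- and depth-scaled fragment counts, as the authors gave them) in genes that are satellite-like, rRNA-like or 7S, whereas the other 11 libraries of its table held 0.205% to 0.405%. In the ADP table this share was 1.87% in 2 µM ADP replicate 1 and 0.271% to 0.375% in the other libraries. In young bone it was 68.2% to 90.8% in 5 libraries and 11.8% in bone medium transfer replicate 2. Old bone held 43.6% to 45.3% of FPKM in globins. Sost, a marker of mature osteocytes, was listed at 0 in all MLO-Y4 groups, where 3 of 8 osteocyte markers reached 1 FPKM in every library. In bone, 4 of them reached that level in old bone, 5 after medium transfer and 6 in bone control, and none was at 0 in all 3 libraries of a group. By an estimate from low values, in units of 1000000 fragments, old bone had 30.2 to 34.1 per library, the cell line 15 to 25.4 and young bone 1.61 to 6.59. If that estimate holds, the low genes of young bone rest on few fragments. Its support is weak in bone, where only 23.3% to 32.1% of the low values used were whole within 0.1 fragment.

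Promoters of the 7 members that passed a test in at least 1 comparison below are shown because these members moved in 2 opposite directions, so that a reader can set the sequences of the rising and falling genes side by side. Each is the RefSeq window on GRCm38.p6 from 250 bases before to 50 bases after a start site, written 5′ to 3′ on the gene's strand, and where a gene has several windows the one with the highest GC content is shown. Capitals mark ACGTG or GCGTG, both forms of the core letters that HIF-1 binds, read on either strand, so that CACGT and CACGC are marked too. Slc2a1 and Hk2 rose with oligomycin A. The Slc2a1 window is chr4:119108495-119108794 on the plus strand, and that of Hk2 is chr6:82774405-82774704 on the minus strand.

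Slc2a1: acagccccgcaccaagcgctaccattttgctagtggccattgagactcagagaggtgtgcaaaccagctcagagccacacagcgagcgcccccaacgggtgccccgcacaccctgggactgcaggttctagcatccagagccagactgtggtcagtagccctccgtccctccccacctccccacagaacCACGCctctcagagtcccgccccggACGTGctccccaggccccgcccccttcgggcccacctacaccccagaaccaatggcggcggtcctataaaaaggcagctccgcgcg

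Hk2: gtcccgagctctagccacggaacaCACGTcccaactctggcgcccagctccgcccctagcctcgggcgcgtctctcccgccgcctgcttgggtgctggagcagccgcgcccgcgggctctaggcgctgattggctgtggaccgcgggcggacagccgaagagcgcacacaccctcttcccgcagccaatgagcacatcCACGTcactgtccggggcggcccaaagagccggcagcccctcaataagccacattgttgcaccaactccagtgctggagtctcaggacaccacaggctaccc

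Hk1, the 3 phosphofructokinase genes and Pdk1 were lower in cells given vehicle supernatant. Their windows are chr10:62340372-62340671 (minus) for Hk1, chr10:78009758-78010057 (minus) for Pfkl, chr15:98108306-98108605 (plus) for Pfkm, chr13:6648722-6649021 (minus) for Pfkp and chr2:71872974-71873273 (plus) for Pdk1. In Hk1 a pair of GCGTG matches on opposite strands shares letters.

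Hk1: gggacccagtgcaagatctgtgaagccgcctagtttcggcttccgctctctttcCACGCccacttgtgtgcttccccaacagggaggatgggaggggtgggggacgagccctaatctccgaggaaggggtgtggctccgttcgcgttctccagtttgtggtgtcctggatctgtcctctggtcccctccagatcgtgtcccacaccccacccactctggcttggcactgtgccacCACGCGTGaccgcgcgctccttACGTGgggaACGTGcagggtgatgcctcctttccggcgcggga

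Pfkl: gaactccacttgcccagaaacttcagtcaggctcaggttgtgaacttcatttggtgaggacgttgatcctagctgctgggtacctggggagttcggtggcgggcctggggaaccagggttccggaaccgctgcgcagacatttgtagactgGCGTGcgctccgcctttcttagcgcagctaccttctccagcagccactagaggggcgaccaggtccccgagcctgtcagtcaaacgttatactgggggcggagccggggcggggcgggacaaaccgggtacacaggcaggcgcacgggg

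Pfkm: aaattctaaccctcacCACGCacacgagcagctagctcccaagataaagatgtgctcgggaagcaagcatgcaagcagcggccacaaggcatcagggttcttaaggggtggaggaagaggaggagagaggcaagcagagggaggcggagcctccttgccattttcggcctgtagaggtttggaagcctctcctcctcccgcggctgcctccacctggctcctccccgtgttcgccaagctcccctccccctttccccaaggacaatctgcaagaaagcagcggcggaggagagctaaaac

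Pfkp: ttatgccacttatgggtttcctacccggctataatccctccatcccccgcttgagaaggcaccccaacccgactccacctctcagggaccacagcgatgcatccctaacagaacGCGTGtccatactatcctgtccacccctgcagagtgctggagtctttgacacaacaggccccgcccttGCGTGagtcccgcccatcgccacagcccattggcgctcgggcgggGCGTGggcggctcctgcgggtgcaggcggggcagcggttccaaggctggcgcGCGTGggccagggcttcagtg

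Pdk1: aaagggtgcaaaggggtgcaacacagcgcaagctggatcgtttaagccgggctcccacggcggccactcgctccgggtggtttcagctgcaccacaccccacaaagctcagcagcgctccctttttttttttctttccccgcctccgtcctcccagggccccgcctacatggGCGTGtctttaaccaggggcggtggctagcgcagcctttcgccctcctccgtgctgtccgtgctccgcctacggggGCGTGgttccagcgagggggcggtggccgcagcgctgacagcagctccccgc

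At least 1 of the 2 motifs stood in every one of these 7 windows, in rising and in falling genes alike, while Hk1, Pfkm and Pdk1 each also have a window without one. Both motifs contain CG, so showing the window with the highest GC content can favour a match, and nothing is concluded from the 7. Over all windows of the 10 members, 14 of 17 held a match, 9 of 17 for ACGTG and 10 of 17 for GCGTG. The Pfkm windows that start at 98108221 and 98108306 overlap and count the same GCGTG match, so the 17 windows are not independent. Of all 32851 windows of this length in the table, not matched for GC content, 43.8% held either motif, 19.6% ACGTG and 32.4% GCGTG. A match is only a run of letters, and no binding was measured.

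In MLO-Y4 cells Pgk1 and Ldha had the highest levels of the 10 genes, which include no enzyme between phosphofructokinase and Pgk1. Enzymes of those steps were also high, with Aldoa at 293, Tpi1 at 314 and Gapdh at 454 FPKM on average without ADP (n = 3). In vehicle cells Pgk1 averaged 785 ± 32.4 FPKM and Ldha 628 ± 21.6 FPKM (SD, n = 3), which made up 46.4% and 37.2% of the summed FPKM of the 10 genes. Slc2a1 followed at 127 ± 11.3 FPKM. These 3 genes held the same order, with no overlap between neighbours, in all 6 MLO-Y4 groups. Below them in vehicle cells came Pfkl at 37.2 ± 0.584, Pfkm at 30.6 ± 1.17, Pdk1 at 26.3 ± 1.19, Hk2 at 25.6 ± 2.46 and Hk1 at 18.9 ± 2.92 FPKM (SD, n = 3), of which only Pdk1 and Hk2 overlapped as neighbours. Pfkp (9.24 ± 1.06 FPKM) and Pfkfb3 (3.32 ± 0.892 FPKM) were lowest, and Pfkfb3 varied most between libraries, at 2.30, 3.70 and 3.96 FPKM in vehicle cells.

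Bone showed another order, with Ldha above Pgk1. Ldha averaged 125 ± 23.0 FPKM and Pgk1 33.3 ± 4.85 FPKM in old cortical bone (SD, n = 3), or 67.6% and 18.1% of the members' sum. In young bone, Ldha made up 64.9% of that sum after medium transfer and 68.0% in bone control, and Pgk1 20.3% after medium transfer and 19.8% in bone control. Within old bone the other 8 genes lay between 1.64 FPKM (Pfkp) and 5.70 FPKM (Hk1), and every neighbour in that order overlapped. Slc2a1 was the third gene in young bone but the seventh in old bone, at 2.91, 3.84 and 2.30 FPKM. The tables were normalised separately, so these levels were not tested against each other, and in whole tissue fewer cells of a type and less RNA per cell cannot be told apart.

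**Figure D1:**
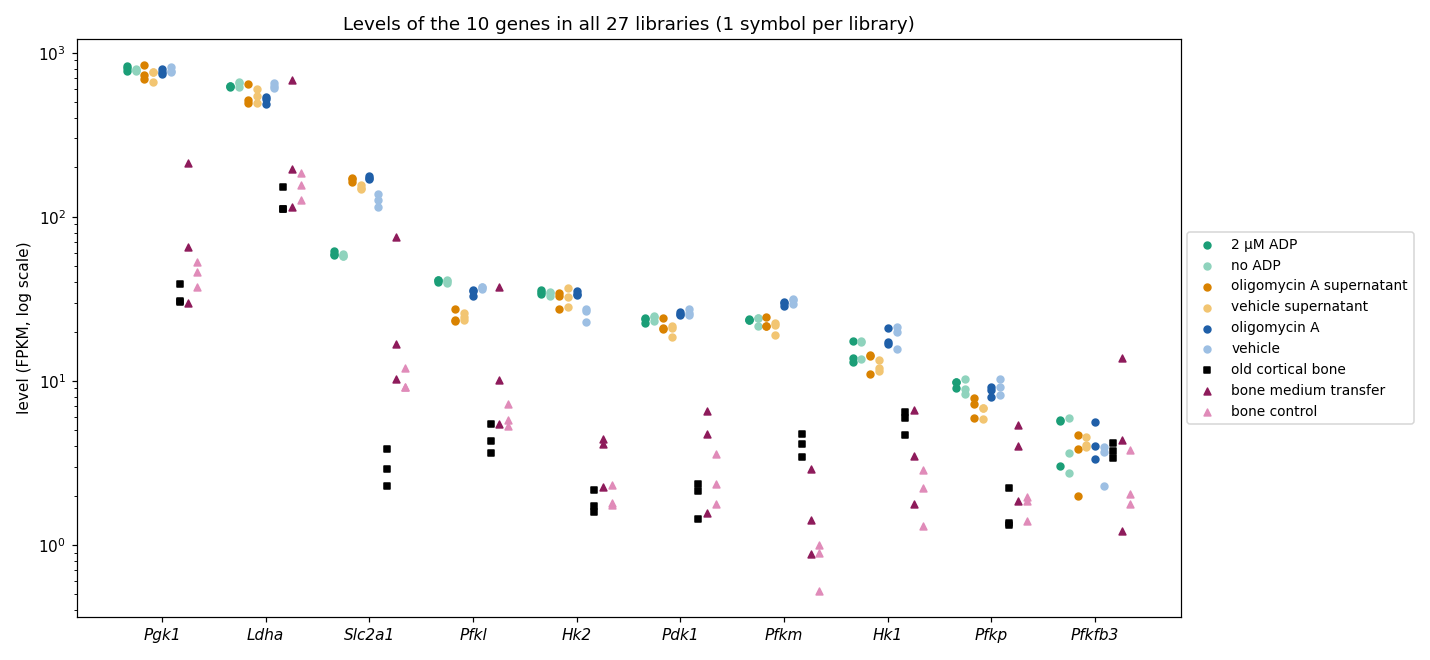
Levels of the 10 genes in FPKM on a log axis, with 1 symbol per library, circles for the 6 MLO-Y4 groups, squares for old bone and triangles for young bone. Pgk1 stands above Ldha in every MLO-Y4 group and below it in the 3 bone groups, and the upper Ldha triangle, at 680 FPKM, is bone medium transfer replicate 2.

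The 2 MLO-Y4 tables differed most in the transporter. Slc2a1 averaged 59.7 ± 1.75 FPKM in cells given 2 µM ADP and 58.2 ± 1.09 FPKM without ADP, beside 127 to 174 FPKM as group means in the oligomycin A table (SD, n = 3). Pgk1 had group means of 802 FPKM with 2 µM ADP and 786 FPKM without ADP, beside 729 to 785 FPKM in the oligomycin A table. No test was made across tables.

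The make-up of each enzyme family, taken as shares within a library, does not depend on scaling between libraries. In MLO-Y4 groups Hk2 held 57.6% to 72.3% of the summed FPKM of Hk1, Hk2 and Hk3 as group means, and Hk3 at most 0.0366%. In old bone Hk3, a hexokinase known from myeloid cells, held 63.6% ± 5.31 of it, Hk1 27.5% ± 3.98 and Hk2 8.90% ± 1.48 (SD, n = 3). Neutrophil markers were high in the same libraries, with all 7 of 7 at 1 FPKM or more and a summed level of 98162 to 103718 FPKM. Their part in the Hk3 share was not tested. In young bone Hk3 held 5.17% ± 4.89 after medium transfer and 4.78% ± 4.38 in bone control (SD, n = 3), beside neutrophil sums of 376 to 1391 FPKM after medium transfer and 299 to 525 FPKM in bone control.

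Pfkl was the leading phosphofructokinase gene in all 9 groups by its mean share, at 43.7% to 71.2% as group means. Pfkm, the muscle subunit, held 40.4% ± 2.19 in old bone and 39.7% ± 1.00 in vehicle MLO-Y4 cells, but 8.73% ± 2.25 in bone medium transfer and 9.42% ± 3.31 in bone control (SD, n = 3). By the depth estimate, which is weakly supported in bone, young bone values of Pfkm rest on as few as about 5.9 fragments in a library. Skeletal muscle markers summed to 19.3 to 36.2 FPKM in old bone, to 12.1 to 20.6 FPKM after medium transfer and to 4.72 to 15.4 FPKM in bone control, with 4, 3 and 1 of 8 at 1 FPKM or more in every library. In vehicle MLO-Y4 cells the same markers summed to 0.645 to 1.37 FPKM, with 0 of 8 at that level and Pvalb and Myh4 at 0 in all 3 libraries. None of the 8 was at 0 in all 3 libraries of a bone group. The part of these markers in the Pfkm share was not tested. Ldha made up at least 99.97% of the Ldha and Ldhb sum as a group mean in MLO-Y4 cells and 86.8% ± 0.575 in old bone, where Ldhb, the heart-type subunit, averaged 19.0 FPKM (n = 3). Pdk1 held 54.9% to 61.3% of the 4 Pdk genes in MLO-Y4 groups and 11.7% ± 2.03 in old bone, where Pdk3 led with 67.0% ± 0.176 (SD, n = 3).

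**Figure D2:**
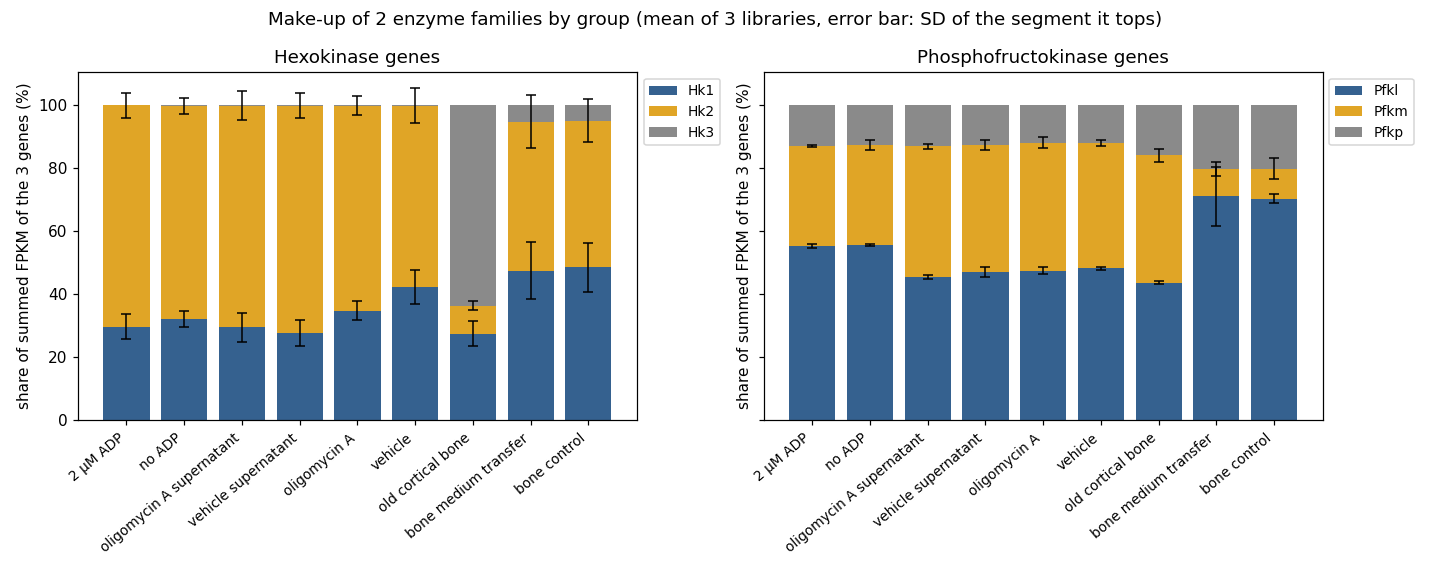
Share of each gene in the summed FPKM of its enzyme family, in percent, for 9 groups; bars are means of 3 libraries and each error bar is the SD of the segment it tops. Hk3 fills 63.6% of the hexokinase bar of old bone and is barely visible in MLO-Y4 cells, and Pfkm is a thin band in young bone only.

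Direct treatment with oligomycin A raised the transporter and 1 hexokinase, and the other 8 genes were not called. Slc2a1 measured 173, 178 and 170 FPKM in oligomycin A cells, against 138, 115 and 127 FPKM in vehicle cells, and Hk2 measured 34.1, 35.5 and 33.3 FPKM in oligomycin A cells, against 27.5, 22.9 and 26.5 FPKM in vehicle cells. For both genes all 3 oligomycin A libraries lay above all 3 vehicle libraries. The difference was 0.46 ± 0.06 for Slc2a1 (log2 fold change of FPKM + 1 ± SE; limma adjusted p = 0.00161), a mean 37.2% higher, and 0.41 ± 0.11 for Hk2 (limma adjusted p = 0.0499), a mean 33.8% higher. Among all 11902 genes tested, 3.71% were called higher and 1.63% lower at an adjusted p under 0.05, against 2 and 0 of the 10 members. The median log2 fold change was -0.04 over the members and -0.00 over all genes.

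The Slc2a1 call held in all 16 alternative analyses. That of Hk2 lay at the threshold and was lost in 10 of 16, among them each of the 6 that leave out 1 library of either group, where its log2 fold change was 0.33 to 0.46. Without vehicle replicate 2, Slc2a1 stood at 0.39 (limma adjusted p = 0.00297) and Hk2 at 0.33 (limma adjusted p = 0.112).

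The last step went the other way without passing the test. Ldha measured 523, 485 and 537 FPKM in oligomycin A cells, against 626, 607 and 651 FPKM in vehicle cells. All 3 oligomycin A libraries lay below the vehicle libraries, with a log2 fold change of -0.29 ± 0.10 (SE; limma adjusted p = 0.120). Of the 16 alternative analyses only a fit of the 6 libraries of these groups alone called it lower (limma adjusted p = 0.0334). Without vehicle replicate 2 its log2 fold change was -0.31 (limma adjusted p = 0.147). Pfkl libraries also did not overlap, at 35.5, 32.8 and 35.6 FPKM in oligomycin A cells and 37.4, 36.5 and 37.6 FPKM in vehicle cells, for a log2 fold change of -0.10 (limma adjusted p = 0.413). Hk1, Pfkm, Pfkp, Pgk1 and Pdk1 had log2 fold changes of -0.08 to -0.03, with 95% intervals that reached at most -0.29 and 0.22. Pfkfb3 stood at 0.30 with an interval of -0.15 to 0.76, too wide to place it.

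Of 45 other genes of the pathway, 28 were measured above the filter of a mean FPKM of 1, and 1 was called. This was Eno2, the enolase best known from neurons, at 21.3 ± 1.18 FPKM in oligomycin A cells and 15.3 ± 1.31 FPKM in vehicle cells (SD, n = 3; log2 fold change 0.45, limma adjusted p = 0.00656). Its abundant relative Eno1 averaged 246 FPKM in oligomycin A cells and 283 FPKM in vehicle cells and was not called. Of 11 regulators, 10 were tested and 2 were called, both higher. Txnip, which restrains glucose uptake, averaged 130 ± 8.07 FPKM in oligomycin A cells and 33.2 ± 3.94 FPKM in vehicle cells (SD, n = 3; log2 fold change 1.95). Myc, a transcription factor with glycolytic targets, averaged 127 ± 3.68 FPKM in oligomycin A cells and 49.8 ± 0.614 FPKM in vehicle cells (SD, n = 3; log2 fold change 1.33). Hif1a was not called, at 154 FPKM in oligomycin A cells and 132 FPKM in vehicle cells.

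**Figure D3:**
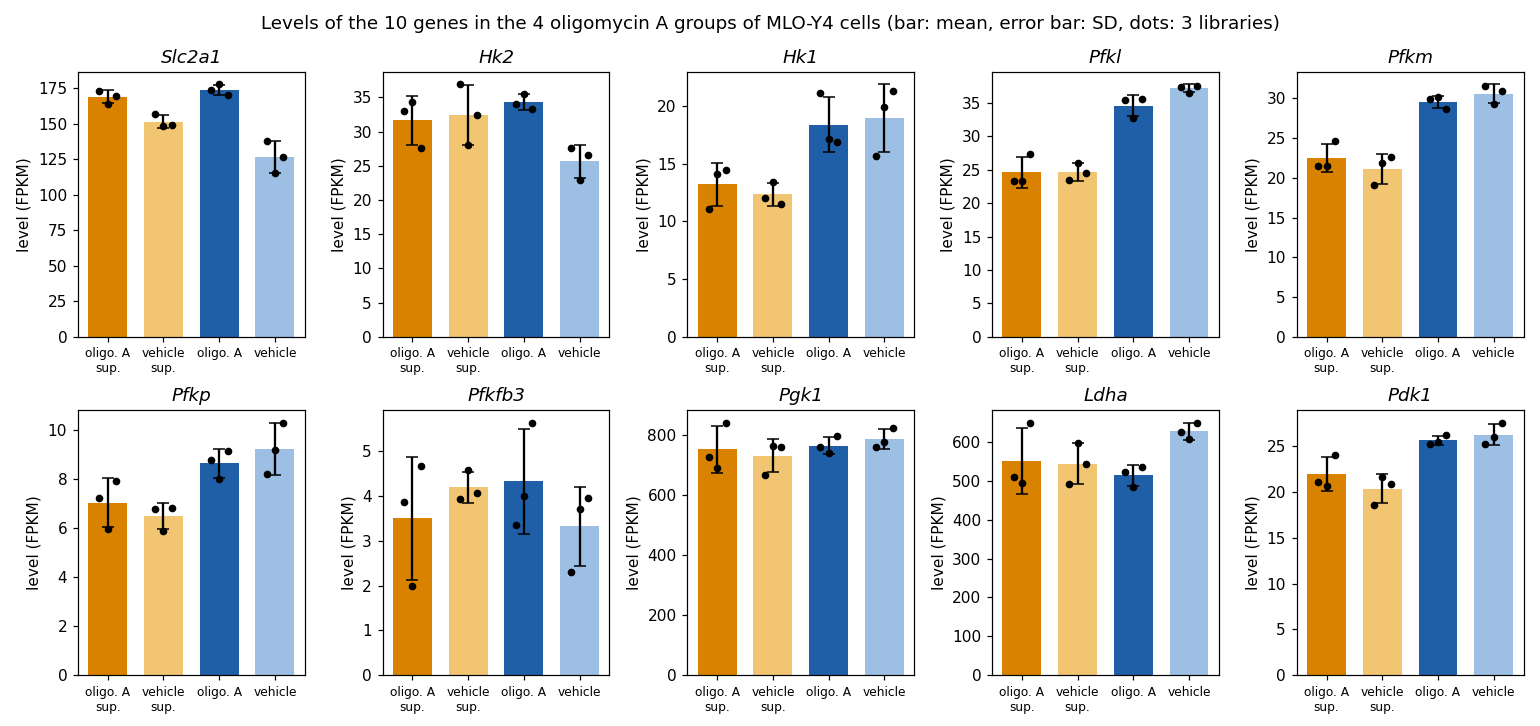
FPKM of each of the 10 genes in the 4 groups of the oligomycin A table (oligo. A sup., cells given supernatant of oligomycin A cultures; vehicle sup., cells given supernatant of vehicle cultures); bars are means, error bars the SD and dots the 3 libraries. Vehicle cells are lowest for Slc2a1 and Hk2, whereas both supernatant groups are lowest for Pfkl, Pfkm, Pfkp, Hk1 and Pdk1.

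No member was called between cells given supernatant of oligomycin A cultures and cells given supernatant of vehicle cultures, where 0.386% of 11902 genes were called in either direction (limma). At an unadjusted p under 0.05, 1 of the 10 passed, beside 8.08% of all genes. It was Slc2a1, with 173, 164 and 169 FPKM under oligomycin A supernatant, against 157, 148 and 149 FPKM under vehicle supernatant. These libraries did not overlap, and the log2 fold change was 0.16 with a 95% interval of 0.04 to 0.28 (limma adjusted p = 0.516). The other 9 members overlapped. How many of all genes had libraries that lay apart in this way was not counted, here or in any other comparison. For Hk2 the log2 fold change was -0.03, with an interval of -0.24 to 0.18.

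Among the other pathway genes 1 of 28 was called, Pdp1, a phosphatase that reactivates pyruvate dehydrogenase, at 6.98 ± 0.499 FPKM under oligomycin A supernatant and 9.23 ± 0.499 FPKM under vehicle supernatant (SD, n = 3; limma adjusted p = 0.0296). Of the regulators, Myc was higher (45.4 FPKM under oligomycin A supernatant and 28.9 FPKM under vehicle supernatant; log2 fold change 0.65). Txnip was lower, at 8.57 ± 1.51 FPKM under oligomycin A supernatant and 21.0 ± 5.24 FPKM under vehicle supernatant (SD, n = 3; log2 fold change -1.18), and so was its relative Arrdc4 (log2 fold change -0.33).

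The difference between the responses of recipient and treated cells was tested directly, as the supernatant contrast minus the treatment contrast. No member passed, where 0.445% of 11902 genes did in either direction (limma). At an unadjusted p under 0.05, 10.7% of all genes and 2 of 10 members did, Slc2a1 at -0.30 (95% interval -0.47 to -0.13, limma adjusted p = 0.222) and Hk2 at -0.44 (-0.74 to -0.15, limma adjusted p = 0.308). The responses of these genes to treatment and to supernatant were therefore not shown to differ. Of the other pathway genes 0 of 28 were called here (4 at an unadjusted p under 0.05), and of the regulators Txnip (-3.13) and Arrdc4 (-0.51).

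The largest number of members moved between the 2 vehicle groups. In cells given vehicle supernatant, 5 of 10 were called lower and 1 higher than in vehicle cells, against 5.18% and 9.49% of 11902 genes (limma). These groups differ in time (2 h and 1 h) as well as in the medium, and the parts of time and medium cannot be told apart. They share the 3 vehicle libraries with the treatment contrast above. The members' median log2 fold change was -0.28, beside 0.03 for all genes.

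The entry enzymes accounted for most of it. All 3 phosphofructokinase subunits fell together. Pfkl measured 23.4, 26.0 and 24.5 FPKM under vehicle supernatant, against 37.4, 36.5 and 37.6 FPKM in vehicle cells (log2 fold change -0.58 ± 0.07 SE, limma adjusted p = 0.000456). Pfkm measured 19.0, 21.8 and 22.6 FPKM under vehicle supernatant, against 31.5, 29.2 and 30.9 FPKM in vehicle cells (-0.51 ± 0.07 SE, limma adjusted p = 0.00138). Pfkp measured 6.79, 5.88 and 6.85 FPKM under vehicle supernatant, against 8.20, 9.20 and 10.3 FPKM in vehicle cells (-0.45 ± 0.10 SE, limma adjusted p = 0.0164). In each gene the groups did not overlap. The mix of subunits stayed close, with Pfkl at 47.1% ± 1.59 of the 3 genes under vehicle supernatant and 48.3% ± 0.541 in vehicle cells (SD, n = 3).

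The hexokinases moved apart. Hk1 measured 12.02, 13.4 and 11.5 FPKM under vehicle supernatant, against 15.7, 19.9 and 21.3 FPKM in vehicle cells (log2 fold change -0.57 ± 0.13 SE, limma adjusted p = 0.0145). Hk2 measured 36.9, 28.1 and 32.4 FPKM under vehicle supernatant and 27.5, 22.9 and 26.5 FPKM in vehicle cells, again without overlap, but it was not called (0.32 ± 0.11 SE, limma adjusted p = 0.0642). Hk2 thus held 67.7% to 75.4% of hexokinase FPKM under vehicle supernatant and 53.5% to 63.7% in vehicle cells.

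At the ends of the route, Slc2a1 was higher and Pdk1 lower. Slc2a1 measured 157, 148 and 149 FPKM under vehicle supernatant, against 138, 115 and 127 FPKM in vehicle cells (log2 fold change 0.26 ± 0.06 SE, limma adjusted p = 0.0177). Pdk1 measured 18.6, 21.7 and 20.9 FPKM under vehicle supernatant, against 25.3, 26.0 and 27.6 FPKM in vehicle cells (-0.35 ± 0.07 SE, limma adjusted p = 0.00871). The groups did not overlap in either gene. Ldha (-0.21, limma adjusted p = 0.190), Pgk1 (-0.11, limma adjusted p = 0.392) and Pfkfb3 (0.29, limma adjusted p = 0.454) were not called, although the Ldha libraries lay apart, at 492 to 600 FPKM under vehicle supernatant and 607 to 651 FPKM in vehicle cells.

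Scaling bears on this comparison. When every library was rescaled to one total, 1 of 10 members was called, Pfkl (lower), and Slc2a1, Hk1, Pfkm, Pfkp and Pdk1 kept their direction without passing. Over all genes, 587 of 11919 were then called, against 1746 of 11902 in the main fit. That rescaling counts the 27.1% of satellite-like, rRNA-like and 7S genes in vehicle replicate 2. With those genes set aside before rescaling, and likewise without that library, 6 of 10 members were called. Over all genes, 2104 of 11905 were called with those genes set aside and 1359 of 11908 without that library. A fit of the 6 libraries of these groups alone ended the call of Slc2a1 (limma adjusted p = 0.0775). Leaving out other single libraries ended the calls of Slc2a1 (vehicle supernatant replicate 1), of Hk1 (vehicle replicate 3 or vehicle supernatant replicate 3) and of Pfkp (vehicle replicate 3 or vehicle supernatant replicate 2). Without vehicle supernatant replicate 2, Hk2 was called higher (log2 fold change 0.42, limma adjusted p = 0.0309).

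Of the other pathway genes, 3 of 28 were called lower and 0 higher. They were Aldoa, the main aldolase here (261 ± 0.865 FPKM under vehicle supernatant and 303 ± 13.5 FPKM in vehicle cells), Pgam2, the muscle phosphoglycerate mutase (1.31 ± 0.369 FPKM under vehicle supernatant and 2.43 ± 0.503 FPKM in vehicle cells), and Pdk2, a relative of Pdk1 (1.60 ± 0.144 FPKM under vehicle supernatant and 2.85 ± 0.283 FPKM in vehicle cells; SD, n = 3 throughout). Of the regulators, Hif1a was higher (163 ± 9.38 FPKM under vehicle supernatant and 132 ± 8.82 FPKM in vehicle cells; SD, n = 3). Egln1, the oxygen sensor that marks HIF-1 for destruction, was lower (log2 fold change -0.37), as were Myc (-0.78) and Txnip (-0.66). Osteocyte markers summed to 309 to 330 FPKM under vehicle supernatant and 219 to 257 FPKM in vehicle cells, and most of that sum was Pdpn (262 to 273 FPKM under vehicle supernatant and 181 to 208 FPKM in vehicle cells). In both groups 3 of the 8 reached 1 FPKM in every library, and of these Gja1 overlapped between the groups. Sost was at 0 in all libraries of both groups, and Fgf23, Dmp1 and Mepe in all vehicle libraries. Fibroblast markers, 3 of 5 of them at 1 FPKM or more in every library, summed to 145 to 164 FPKM under vehicle supernatant and 116 to 126 FPKM in vehicle cells. Sums of 2 lists at low levels also lay apart, at 6.67 to 7.80 FPKM under vehicle supernatant and 4.40 to 5.45 FPKM in vehicle cells for neutrophil markers (2 of 7 at 1 FPKM or more), and at 17.3 to 20.4 FPKM under vehicle supernatant and 13.7 to 14.2 FPKM in vehicle cells for osteoclast markers (2 of 4). The part of these lists in the result was not tested.

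**Figure D4:**
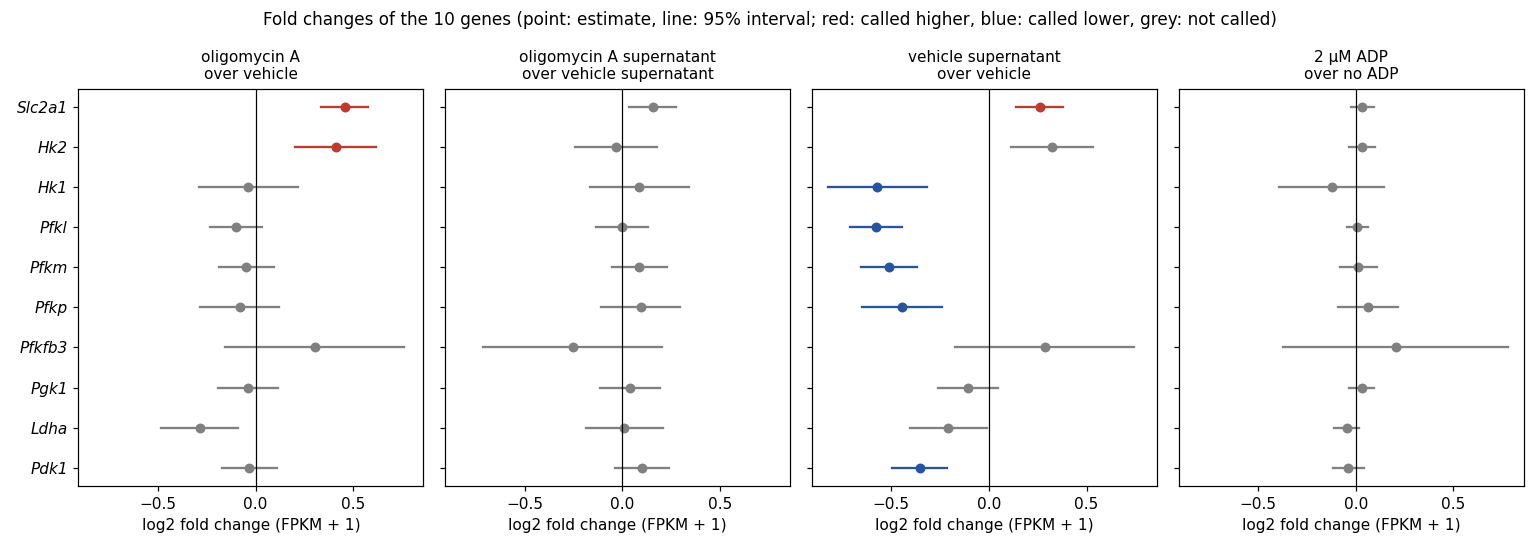
Log2 fold change of FPKM + 1 for each of the 10 genes in 4 comparisons within MLO-Y4 tables; points are estimates, lines are 95% intervals, red marks genes called higher, blue genes called lower and grey genes not called. Blue points occur in the vehicle supernatant panel alone, for Hk1, Pfkl, Pfkm, Pfkp and Pdk1.

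Across the 12 libraries of this table, the members with the widest range of group means on the log2(FPKM + 1) scale were Pfkl (0.58), Hk1 (0.57) and Pfkm (0.51). Among 6651 genes averaging 5 FPKM or more, those whose pattern was most like that of Pfkl were the tubulins Tubb4b (Pearson r = 0.97) and Tubb2a (0.96) and the phosphoglucomutase gene Pgm2 (0.97). For Pfkm they were Ulk1, an autophagy kinase (0.98), Slc9a3r1 (0.97) and Triobp (0.97), and for Hk1 Tmem167b (0.95), Tspan9 (0.95) and Papss1 (0.92). These likenesses describe 12 libraries in 4 groups that share 1 table and its scaling.

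Stimulation with 2 µM ADP for 2 h was followed by no called change in the 10 genes. At this dose 0.0603% of 11604 genes were called in either direction (7 genes, limma), 0 of 10 members were called, and 0 of 10 passed an unadjusted p under 0.05, which 5.84% of all genes did. Without 2 µM ADP replicate 1, 40 of 11615 genes were called, 36 of them higher, and still 0 of 10 members. Slc2a1 measured 59.2, 61.6 and 58.2 FPKM with 2 µM ADP, against 57.6, 59.5 and 57.6 FPKM without ADP, and Hk2 measured 34.6, 33.7 and 36.0 FPKM with 2 µM ADP, against 34.2, 33.0 and 34.7 FPKM without ADP. The groups overlapped in every member. The 95% intervals of the log2 fold change stayed within -0.03 and 0.09 for Slc2a1, within -0.04 and 0.10 for Hk2 and within -0.11 and 0.02 for Ldha, but reached from -0.37 to 0.78 for Pfkfb3. Of the other pathway genes 0 of 28 were called, with 2 at an unadjusted p under 0.05.

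In young bone no member was called, and all 10 estimates were positive, as were 85.1% of those of all genes. Bone medium transfer replicate 1 held 27280 genes at 1 FPKM or more, against 9306 to 15513 in the other young bone libraries. Without it 12806 genes passed the filter, in place of 16438. The shares over all genes given here thus include genes that passed through that library. Log2 fold changes of bone medium transfer over bone control were 0.46 (Pdk1) to 1.16 (Slc2a1), each with a limma adjusted p of 0.90, and the groups overlapped in every gene. Here 0.0243% of 16438 genes were called in either direction, 0 of 10 members were called and 0 of 10 passed an unadjusted p under 0.05, which 2.24% of all genes did. The members' median of 0.70 stood beside 0.45 for all genes, and the 25 other pathway genes tested had a median of 0.68.

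A single library carried most of the difference in the members. Slc2a1 measured 16.8, 74.9 and 10.2 FPKM after medium transfer, against 9.24, 9.17 and 12.02 FPKM in bone control, and Ldha measured 195, 680 and 115 FPKM after medium transfer, against 156, 126 and 186 FPKM in bone control. The second value of each transfer group is replicate 2, the library with 11.8% of satellite-like, rRNA-like and 7S genes. Expressed per 1000000 FPKM outside those genes, Slc2a1 stood at 71.3, 176 and 101 after medium transfer, against 67.8, 81.7 and 70.9 in bone control. Ldha then stood at 829, 1598 and 1138 after medium transfer, against 1144, 1123 and 1098 in bone control. After that rescaling the members' median was 0.13 and that of all genes -0.02, log2 fold changes ran from -0.07 to 0.53, and the groups still overlapped in every member. Without replicate 2, 9 members passed the filter and 7 of 9 estimates were positive, with a median of 0.21 that lay below the 0.29 of all genes. On FPKM as given, without the rescaling used for the members, marker sums of the groups lay apart for erythroid and adipocyte markers. Whether they lie apart after that rescaling was not examined. Erythroid markers summed to 6056 to 12202 FPKM after medium transfer and 2259 to 4633 FPKM in bone control, with 4 of 6 at 1 FPKM or more in every library of each group. Adipocyte markers summed to 9.83 to 95.3 FPKM after medium transfer and 3.75 to 4.27 FPKM in bone control (1 of 4 at that level in each). Much of the upper sums was Cfd, at 0 to 84.8 FPKM after medium transfer and 0 to 0.360 FPKM in bone control. Fabp4 stood at 8.36 to 9.83 FPKM after medium transfer and 3.26 to 3.55 FPKM in bone control. None of the markers in these lists was at 0 in all 3 libraries of a group. Their part in the members' levels was not tested.

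**Figure D5:**
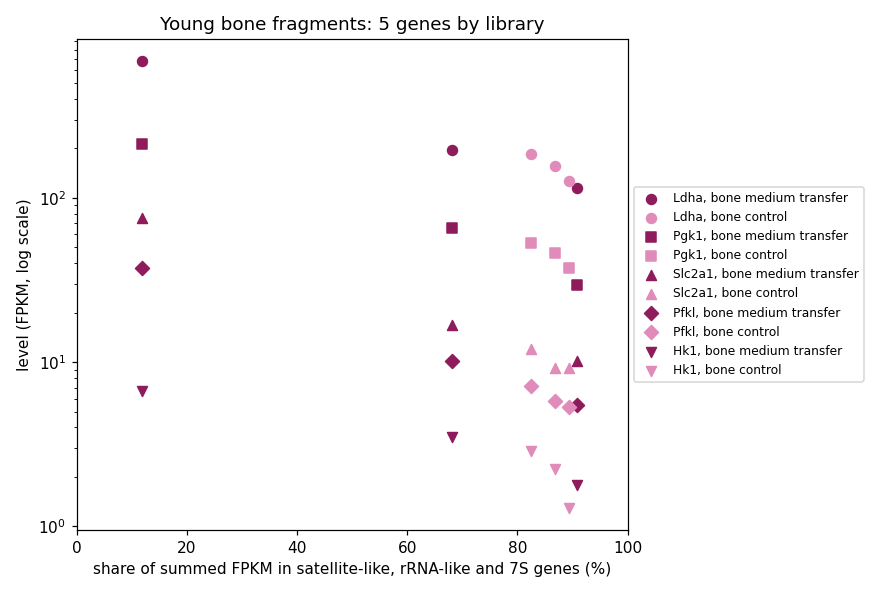
FPKM (log axis) of 5 of the 10 genes in each young bone library, by the percent of its summed FPKM in satellite-like, rRNA-like and 7S genes. Bone medium transfer replicate 2, at 11.8%, is highest for all 5 genes, and the other 5 libraries lie at 68.2% to 90.8%.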

How the data were processed

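RNA was enriched with oligo(dT) beads before sequencing, per the labels' protocols. As deposited, 4 tables hold FPKM values for 55335 gene rows each. HTSeq and mm10 appear in the submitters' processing notes without a role, and the program behind the FPKM is not stated in any source read. Titles gave the groups, and the tables hold 27 libraries of 9 groups (21 of 48 samples were not analysed here). The 10 genes and all lists were chosen with earlier results of these data known.

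Tests used limma 3.58.1 in R 4.3.3 on log2(FPKM + 1), with a variance trend, over every gene averaging 1 FPKM or more in the fit, and Benjamini-Hochberg adjustment over them; called means an adjusted p under 0.05. The 4 oligomycin A groups shared 1 fit. The pseudocount shrinks fold changes of low genes. Tables were never tested against each other. The procedure was also run on simulated data with independent noise per gene and shifts of 1 log2 unit. That run does not bear on changes as small as those called in the members, nor on scaling between libraries. The text names all 10 members, every called gene of the pathway and regulator lists, and for 3 members the 3 most similar genes. Aldoa has 2 rows, and the one with the higher level was used.

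FPKM are not counts. Depth was estimated from the steps of low values, as the best-scoring depth of a search. Only 42.9% to 47.7% of these values were whole within 0.1 fragment in MLO-Y4 libraries and 23.3% to 32.1% in bone. Values without steps would also lie this near a whole number at times, and the estimate was not set against that rate. Depths are therefore approximate, those of bone most of all, and no count test was run. Gene positions are from GENCODE M21. Figures were drawn with matplotlib 3.10.9. Alternatives covered the pseudocount, filters, scalings, the variance prior, a replicate block, separate fits and leaving out each library; setting aside satellite-like, rRNA-like and 7S genes before rescaling was chosen after seeing the data. One marker list is not reported here.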

Additional observations from a re-analysis of the deposited data

How the results depend on the processing

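Under oligomycin A 2 members were called. This count fell to 1 without a filter on low values, after rescaling to one total, with a variance prior without trend and with the replicate block, and was 1 whenever a single library was left out. Over all genes, 636 were called in the main fit and 386, 276, 593 and 434 in the first settings named, in that order. Without a single library 265 to 652 were called. The cause was not tested. Between vehicle supernatant and vehicle, 6 members were called, and 1 after rescaling to one total, beside 1746 and 587 of all genes. In the other comparisons the count of members stayed at 0 in every alternative run. No called member reversed.

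Same-numbered libraries did not deviate together (correlations of -0.23 to 0.05 in 5 comparisons), so the main tests did not pair them. With 3 libraries per group this check cannot exclude that same-numbered samples belonged together. The replicate block changed the count of all genes called from 46 to 28 for the supernatants, from 53 to 35 for the difference of responses, from 7 to 0 for ADP and from 4 to 2 in young bone.

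Over all genes, oligomycin A gave 442 higher and 194 lower calls, against 257 and 19 after rescaling to one total, 704 and 522 after quantile normalization and 286 and 366 without vehicle replicate 2. Vehicle supernatant gave 1129 higher and 617 lower calls, against 485 and 102 after rescaling to one total, 1094 and 1115 with median-of-ratios scaling and 628 and 731 without vehicle replicate 2. Rescaling to one total shifted the median of all genes by 0.12 and 0.10 in these comparisons. By the approximate depth estimate, depth limits young bone most, where Pfkm would rest on as few as about 5.9 fragments.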
